A study of Homo sapiens with 36 samples.

Results

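POU5F1, NANOG, SOX2, SALL4, ZFP42 and PRDM14 are transcription factors of pluripotent stem cells, and their mRNAs were followed over a polysome gradient in HUES6, a human embryonic stem cell line. One Ensembl transcript was taken for each gene, as given with the list of names: ENST00000259915.12 for POU5F1, ENST00000229307.8 for NANOG, ENST00000325404.2 for SOX2, ENST00000217086.8 for SALL4, ENST00000326866.4 for ZFP42 and ENST00000276594.2 for PRDM14. These are 6 of the 223367 transcripts in the table, and all 6 passed the filter of 1 TPM in at least 3 libraries. TPM is an abundance corrected for transcript length and scaled to the same total in every library. Other isoforms of these genes were not analysed here, and reads shared with processed copies of POU5F1 or NANOG elsewhere in the genome can be divided between IDs.

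The groups were RBPMS knockout cells (KO) and unmodified cells (WT), both grown in the defined stem cell medium FTDA. Both were treated with 100 ng/ml cycloheximide for 5 min to hold ribosomes on their mRNAs. RBPMS binds RNA, and the comparison asks what its loss does to mRNAs and to their place on ribosomes. Each of 3 KO and 3 WT cultures gave an unfractionated Input and 5 gradient fractions, 40S, 80S, disome, Polysome1 and Polysome2, which makes 36 libraries. The labels do not say whether the KO cultures are 1 clone or several, or whether cultures are biological repeats, so p-values reach no further than the spread between these samples. Because every library started from the same mass of RNA, a value describes what a fraction is made of and says nothing of how much RNA it held.

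POU5F1 (also called OCT4) and SOX2 bind DNA as a pair, and together with NANOG they keep human embryonic stem cells undifferentiated and activate their own genes and those of each other. SALL4 is a zinc finger repressor that works with them, PRDM14 is a zinc finger protein needed to keep human embryonic stem cells in that state, and ZFP42 (REX1) is a zinc finger protein widely used as a marker of it. On the gradient, an mRNA in 40S carries no complete ribosome, one in 80S carries a single ribosome, and one in the polysome fractions is being read by several.

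The stretches before 3 of these genes are shown because POU5F1 and SOX2 are themselves known to act on the group. They are the 250 bases upstream of the RefSeq gene start on the plus strand of GRCh38.p14, for NANOG at chr12:7789152-7789401, for SOX2 at chr3:181711675-181711924 and for ZFP42 at chr4:187995521-187995770. Capitals mark matches, on either strand, to ATGCAAA (the octamer type read by POU5F1) and to CATTGT or CTTTGT (types read by SOX proteins).
NANOG: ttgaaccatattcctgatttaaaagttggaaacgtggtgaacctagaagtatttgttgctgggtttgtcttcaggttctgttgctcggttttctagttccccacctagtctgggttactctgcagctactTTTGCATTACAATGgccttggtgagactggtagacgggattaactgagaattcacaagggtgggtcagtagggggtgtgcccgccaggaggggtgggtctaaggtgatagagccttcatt
SOX2: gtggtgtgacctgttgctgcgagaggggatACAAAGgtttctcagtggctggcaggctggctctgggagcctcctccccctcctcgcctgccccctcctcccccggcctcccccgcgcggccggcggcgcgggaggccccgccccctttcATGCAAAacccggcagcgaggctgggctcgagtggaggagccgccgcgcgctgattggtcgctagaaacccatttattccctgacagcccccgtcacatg
ZFP42: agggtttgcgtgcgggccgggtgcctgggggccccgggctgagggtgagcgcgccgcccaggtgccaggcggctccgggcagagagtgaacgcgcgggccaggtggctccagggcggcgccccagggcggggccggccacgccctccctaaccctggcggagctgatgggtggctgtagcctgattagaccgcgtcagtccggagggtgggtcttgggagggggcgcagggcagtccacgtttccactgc
The NANOG stretch held ATGCAAA and CATTGT side by side on the minus strand, 120 to 107 bases before the start, as 1 match to the joined form CATTGTNATGCAAA, which contains both shorter motifs. The SOX2 stretch held ATGCAAA 100 to 94 bases and CTTTGT 220 to 215 bases before the start, and the ZFP42 stretch held none of these letters. Among 35116 stretches of the same length, 3.94% held ATGCAAA, 9.29% CATTGT, 13.7% CTTTGT and 0.00570%, or 2 stretches, the joined form. A match is a description of letters and not a measured binding site.

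Libraries of 2 KO cultures and 1 further library stood apart, and this touches most values that follow. Over the 51052 tested transcripts, each KO replicate 3 library was most like a WT library among those of its own fraction (Pearson's r of log2(TPM + 1) 0.886 to 0.915), while those of KO replicates 1 and 2 were most like each other (0.813 to 0.911). The library labelled WT 40S replicate 3 was nearest to KO 40S replicate 2 (0.814), and had r of 0.641 and 0.631 with the other WT 40S libraries. Libraries of KO replicates 1 and 2 held 9867 to 21914 transcripts at 1 TPM or more, those of KO replicate 3 held 16331 to 31380, and WT libraries held 8956 to 38389. ERCC spike-in RNA summed to 43.3 to 3589 TPM in KO libraries and to 2.55 to 876 TPM in WT libraries. The part of these differences in the results was not tested, and RBPMS itself was not analysed here, so the genotype is taken from the labels. As a check of the cell type, all 6 factors were above 1 TPM in the 3 WT Input libraries. In KO Input the number was 5 in replicate 1, 5 in replicate 2 and 6 in replicate 3. The check is weak, because 34899 to 38389 transcripts reached 1 TPM in each WT Input library. Markers of other cell types were not analysed here.

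POU5F1 was the most abundant of the 6 mRNAs in WT cells and far lower in KO replicates 1 and 2. Its Input level was 33.1, 232 and 1606 TPM in KO cultures and 2066, 1994 and 1775 TPM in WT cultures. KO replicate 1 was 58.7-fold and KO replicate 2 8.37-fold below the WT mean, and KO replicate 3 was 1.21-fold below it. All 3 KO values lay under all 3 WT values, yet the spread among KO cultures was so wide that the log2 difference of -3.05 did not pass the test (SE 1.88, limma adjusted p = 0.25). In bulk RNA, fewer cells that make a transcript and less of it per cell cannot be told apart.

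The same division among KO cultures ran through the gradient. POU5F1 stood at 26.6, 46.1 and 1613 TPM in KO 80S and at 1846, 2311 and 2040 TPM in WT 80S. In disome it was 25.4, 45.6 and 2186 TPM in KO cultures and 4510, 4674 and 1793 TPM in WT cultures. Polysome1 held 44.0, 52.5 and 2460 TPM in KO cultures and 4484, 4266 and 4641 TPM in WT cultures. In Polysome1 the WT cultures were closest together and their mean was highest, although WT replicates 1 and 2 were higher in disome. In Polysome1 KO replicates 1 and 2 were 101-fold and 85.1-fold below the WT mean.

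POU5F1 in Polysome2 was 65.8, 59.1 and 1863 TPM in KO cultures and 2125, 1794 and 2247 TPM in WT cultures. The 40S libraries broke the pattern, with 10.6, 26.6 and 1272 TPM in KO and 780, 1031 and 11.9 TPM in WT, where the low value is the WT 40S library that resembled KO libraries. Log2 differences between KO and WT were -4.62 in Polysome1, -4.59 in disome, -4.01 in 80S, -3.39 in Polysome2 and -1.56 in 40S (SE 1.88 each), and none passed the test (limma adjusted p between 0.12 and 1). In disome, 0.0627% of tested transcripts had a difference as low or lower. With culture as a random block the Polysome1 and disome differences passed (limma adjusted p = 0.036 and 0.049). Without KO replicates 1 and 2, which leaves KO replicate 3 alone, the Polysome1 and Input differences were -0.86 and -0.27. With 1 KO library per fraction, that fit cannot say whether KO replicate 3 differed from WT. KO replicate 3 itself was below all WT values in Input, 80S and Polysome1, within their range in disome and Polysome2, and above it in 40S.

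**Figure D1:**
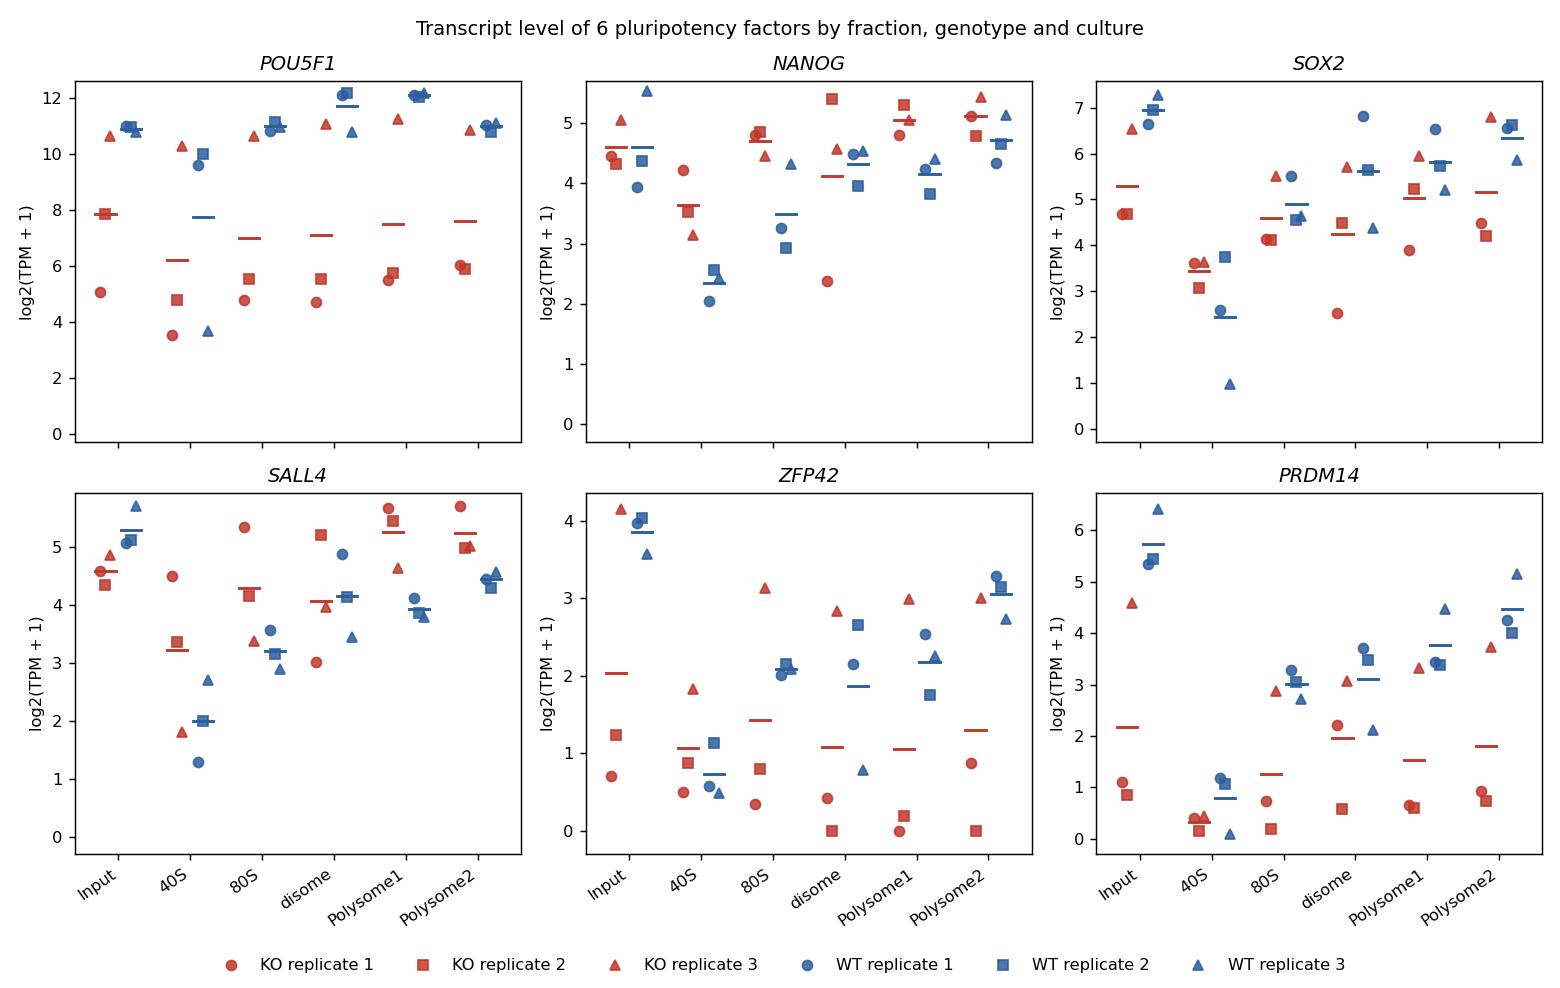
Each panel shows 1 transcript, with log2(TPM + 1) on the vertical axis and the 6 fractions on the horizontal axis; points are single libraries, symbols mark cultures, short lines are means of 3, and KO is drawn left of WT. POU5F1, ZFP42 and PRDM14 were low in KO replicates 1 and 2, with KO replicate 3 near WT, while NANOG and SALL4 in those 2 cultures stood at or above WT levels in most fractions.

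PRDM14 was the only one of the 6 whose KO against WT difference passed the test, and only in Input. Its level was 1.14, 0.809 and 23.2 TPM in KO Input and 39.8, 42.3 and 84.4 TPM in WT Input. KO and WT did not overlap, and the log2 difference was -3.55 (SE 0.89, limma adjusted p = 0.0053). In this comparison 18.0% of all tested transcripts were called lower, so 1 lower call among 6 members is near the background. The call did not hold without KO replicate 1 (log2 difference -3.01, limma adjusted p = 0.084) or without KO replicate 2 (-2.89, limma adjusted p = 0.074). Without both the log2 difference was -1.14, where 1 KO library gives no spread among KO cultures. Fitted on the Input libraries alone, limma's adjusted p was 0.13.

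PRDM14 in Polysome2 was 0.893, 0.667 and 12.3 TPM in KO cultures and 18.0, 15.0 and 34.6 TPM in WT cultures. The groups did not overlap there or in Polysome1, where KO cultures had 0.575, 0.521 and 8.97 TPM and WT cultures had 9.88, 9.46 and 21.0 TPM. Their log2 differences were -2.67 in Polysome2 and -2.24 in Polysome1 (SE 0.89, limma adjusted p = 0.068 and 0.11), and the one in Polysome2 passed with culture as a random block (limma adjusted p = 0.027). In 80S only KO replicate 3, at 6.38 TPM, reached the WT range, and in disome KO replicates 1 and 3 did, at 3.64 and 7.38 TPM. KO disome replicate 1 was the KO library with the fewest transcripts at 1 TPM or more, 9867.

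ZFP42 followed the same division at lower levels. Its Input level was 0.635, 1.36 and 16.8 TPM in KO cultures and 14.7, 15.4 and 10.8 TPM in WT cultures. KO replicate 3 stood above all WT cultures while the other two stood 21.5-fold and 10.1-fold below the WT mean, and the log2 difference of -1.83 did not pass the test (SE 0.87, limma adjusted p = 0.14). It passed with culture as a random block (limma adjusted p = 0.042). In Polysome2 the values were 0.838, 0 and 7.05 TPM in KO cultures and 8.72, 7.85 and 5.64 TPM in WT cultures. ZFP42 was listed at 0 in 3 of the 12 libraries of KO replicates 1 and 2, and a listed 0 is an estimate and not a count. KO replicate 3 was above the WT range in 5 of 6 fractions.

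NANOG did not follow this division. Input held 20.8, 19.0 and 32.1 TPM in KO cultures and 14.3, 19.7 and 45.0 TPM in WT cultures, with all KO values inside the WT range and KO minus WT at -0.00 (log2, SE 0.57, limma adjusted p = 1). In 80S it was 26.9, 27.8 and 21.0 TPM in KO cultures and 8.53, 6.58 and 18.9 TPM in WT cultures. KO values were also above all WT values in Polysome1, at 26.8, 38.3 and 32.0 TPM in KO against 17.9, 13.1 and 20.0 TPM in WT, and in 40S, at 17.7, 10.5 and 7.83 TPM in KO against 3.14, 4.89 and 4.37 TPM in WT. The 3 KO cultures were thus together in these fractions, unlike for POU5F1.

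The NANOG log2 differences were 1.29 in 40S, 1.21 in 80S and 0.89 in Polysome1 (SE 0.57 each), and none passed the test (limma adjusted p = 0.77, 0.28 and 0.30). Of all tested transcripts, 8.99%, 7.09% and 9.17% had all KO above all WT values in 40S, 80S and Polysome1. With KO replicate 3 alone the differences were 0.80, 0.97 and 0.89, in the same direction, but 1 culture gives no spread among KO cultures. After scaling to the ERCC total all of them changed sign, to -0.79 in 40S, -1.54 in 80S and -3.25 in Polysome1, and the Polysome2 difference of 0.40 turned to -4.77. In the polysome fractions this came with the median of all transcripts at -3.01 in Polysome1 and -3.40 in Polysome2. KO disome replicate 1, with 4.19 TPM, was the 1 KO library below the WT range, and it held the fewest transcripts at 1 TPM or more of any KO library.

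**Figure D2:**
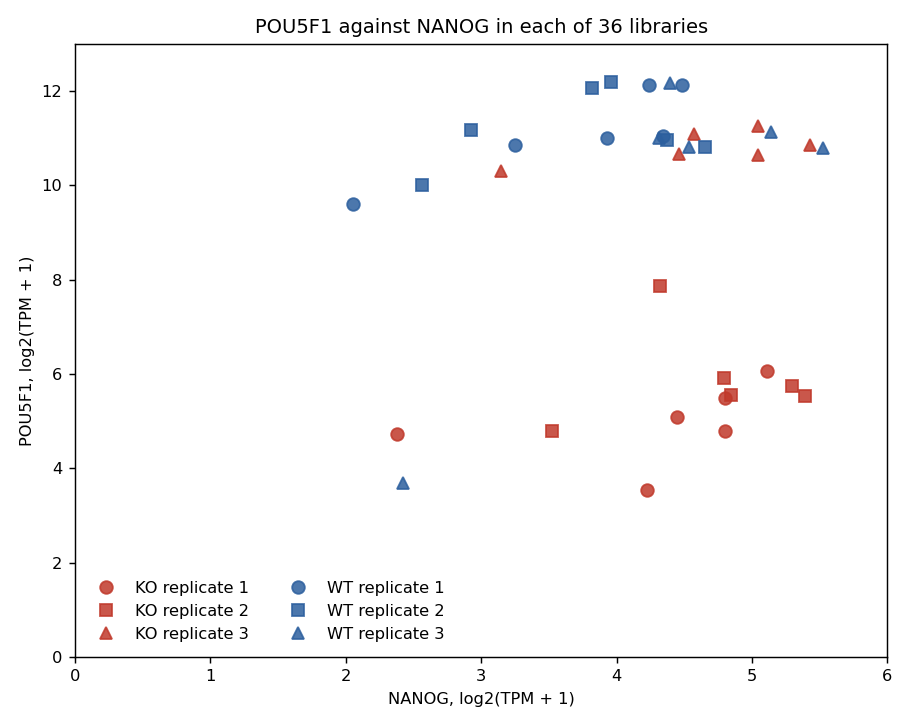
Each point is 1 of the 36 libraries, with NANOG on the horizontal and POU5F1 on the vertical axis, both as log2(TPM + 1); colour marks genotype and symbol marks culture. The 12 libraries of KO replicates 1 and 2, and WT 40S replicate 3, lie low on the POU5F1 axis, with POU5F1 at 10.6 to 232 TPM, and spread over much the same NANOG levels as the rest.

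The balance among the 6 mRNAs differed accordingly. POU5F1 made up 17.1% to 55.9% of the summed TPM of the 6 in KO replicate 1 and 30.8% to 78.1% in KO replicate 2, against 89.3% to 98.1% in KO replicate 3. In WT replicates 1 and 2 the share was 89.5% to 98.6%, and in WT replicate 3 it was 51.3% to 98.0%, with the lowest value in its 40S library. POU5F1 was the most abundant of the 6 in 3 of 6 libraries of KO replicate 1 and in all libraries of the other 5 cultures. It ranked 860 to 2795 among all transcripts of a library in KO replicate 1 and 38 to 116 in KO replicate 3, against 13 to 169 in WT replicate 1.

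SOX2, the partner of POU5F1, was lower in the Input of every KO culture, at 24.6, 24.8 and 91.8 TPM, against 99.9, 122 and 153 TPM in WT. The log2 difference of -1.66 did not pass the test (SE 0.82, limma adjusted p = 0.15). In Polysome2 it was 21.5, 17.4 and 111 TPM in KO cultures and 93.2, 97.6 and 57.0 TPM in WT cultures, so KO replicate 3 was above the WT range and the others below it. In 40S all KO values, 11.2, 7.35 and 11.5 TPM, were inside the wide WT range of 0.951 to 12.4 TPM. Where POU5F1 was 58.7-fold below the WT mean, in KO Input replicate 1, SOX2 was 5.08-fold below it.

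SALL4 was lower in KO Input and higher in several KO gradient fractions, among them the polysomes. Its Input level was 22.9, 19.1 and 27.9 TPM in KO cultures and 32.3, 33.7 and 51.2 TPM in WT cultures. In Polysome1 it was 50.1, 42.5 and 23.8 TPM in KO cultures and 16.2, 13.5 and 12.9 TPM in WT cultures. Every KO culture was thus below WT in Input and above WT in Polysome1.

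Polysome2 showed the same for SALL4, with 51.3, 30.5 and 31.2 TPM in KO cultures and 20.9, 18.5 and 22.6 TPM in WT cultures. None of the 3 log2 differences, -0.71 in Input, 1.33 in Polysome1 and 0.80 in Polysome2 (SE 0.62 each), passed the test (limma adjusted p = 0.43, 0.16 and 0.42). All KO above all WT values were found for 9.17% of tested transcripts in Polysome1 and 9.86% in Polysome2. With KO replicate 3 alone the differences were -0.44, 0.71 and 0.57, in the same directions, and after ERCC scaling those of Polysome1 and Polysome2 turned to -2.82 and -4.40.

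Across members and fractions, 1 of 36 KO against WT differences passed the test, with 10 at an unadjusted p under 0.05. The share of all tested transcripts called in either direction was 0.0235% for 40S, 0.599% for 80S, 2.78% for disome, 5.42% for Polysome1 and 5.52% for Polysome2. KO and WT replicates did not overlap in 13 of the 36: KO was below WT in 8 and above it in 5. In Input, 4 of 6 members had all KO below all WT values, against 29.0% of all tested transcripts. For KO below WT that background was 12.8% in 80S (1 member), 19.6% in Polysome1 (2 members) and 13.8% in Polysome2 (1 member). The median log2 difference of the 6 was -1.74 in Input against -0.51 over all tested transcripts, -1.47 in Polysome2 against -0.22, and 0.67 in 40S against 0.00. Without KO replicate 3, 19 of 36 passed: POU5F1, ZFP42 and PRDM14 were lower in every fraction except 40S, SOX2 was lower in Input, disome and Polysome2, and SALL4 was higher in Polysome1. Far more of all tested transcripts were called in that setting too: the share called lower was 38.0% for Input, 16.8% for 80S, 28.2% for disome, 27.3% for Polysome1 and 25.3% for Polysome2, and 9.12% were higher in Polysome1. In the fit with culture as a random block, 20.7% of all tested transcripts were called lower in Input, 6.07% in disome, 8.29% in Polysome1 and 8.25% in Polysome2. Without KO replicates 1 and 2 only 1 KO library is left in each fraction, so that fit cannot say whether KO replicate 3 differed from WT.

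**Figure D3:**
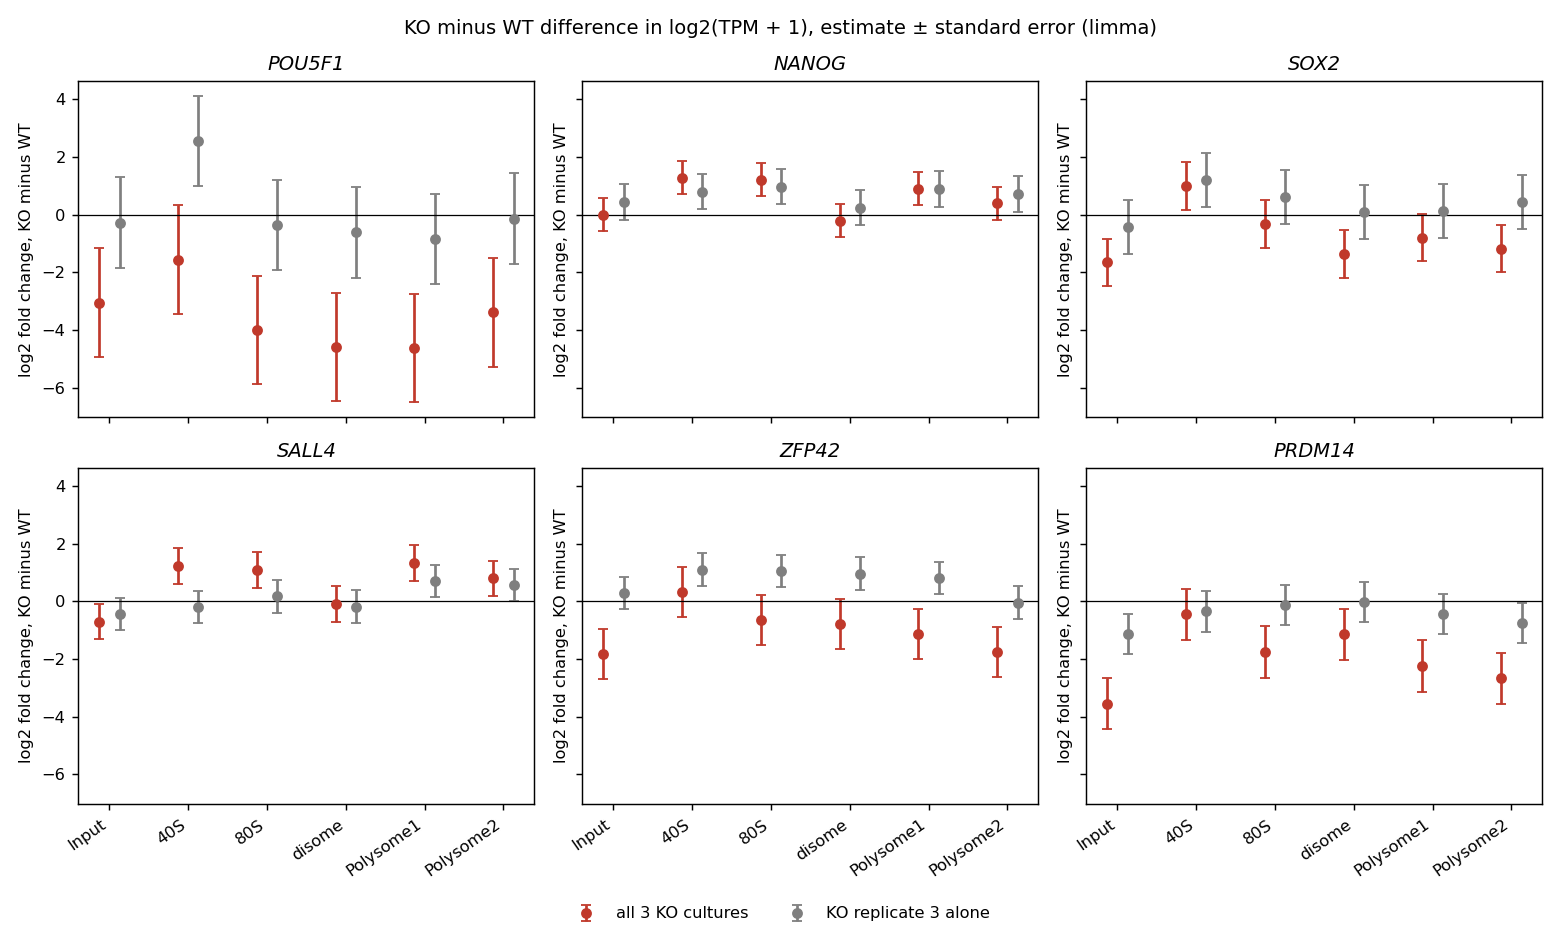
Each panel shows the KO minus WT log2 difference of 1 transcript in the 6 fractions, with bars of ± 1 standard error from limma; red uses all 3 KO cultures and grey uses KO replicate 3 alone. Red points of POU5F1 range from -4.62 to -1.56 while the grey ones stay between -0.86 and 2.54, and NANOG has red and grey points close together.

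How the 6 mRNAs lie on the gradient of unmodified cells was read from each WT fraction against WT Input. In 40S, 5 of the 6 were called lower: SOX2, PRDM14, NANOG, SALL4 and ZFP42. For SOX2 the values were 5.02, 12.4 and 0.951 TPM in WT 40S and 99.9, 122 and 153 TPM in WT Input, and the log2 difference was -4.52 (SE 0.82, limma adjusted p = 8.505e-05). PRDM14 had 1.28, 1.10 and 0.0654 TPM in WT 40S and 39.8, 42.3 and 84.4 TPM in WT Input, and the log2 difference was -4.95 (SE 0.89, limma adjusted p = 7.565e-05). For both, all 40S values were below all Input values, and the share of all tested transcripts for which this held was not computed.

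SALL4 had 1.43, 2.97 and 5.52 TPM in WT 40S, against the Input values given above, and its log2 difference was -3.30 (SE 0.62, limma adjusted p = 0.00011). ZFP42 had 0.496, 1.19 and 0.402 TPM there and differed from Input by -3.13 (SE 0.87, limma adjusted p = 0.0047). NANOG had 3.14, 4.89 and 4.37 TPM and differed by -2.27 (SE 0.57, limma adjusted p = 0.0022). Many other transcripts were lower too: 42.5% of all tested transcripts were called lower in WT 40S, and the median log2 difference over all tested transcripts was -0.95. After median-of-ratios scaling, which moved that median to -0.16, SOX2 and PRDM14 were still lower (limma adjusted p = 0.0025 and 0.0021), SALL4 and ZFP42 did not pass (limma adjusted p = 0.30 and 0.12), and NANOG turned to 0.12 (limma adjusted p = 0.89). After quantile normalization the same 3 did not pass, with NANOG at -0.45, SALL4 at -1.69 and ZFP42 at -1.59 (limma adjusted p = 0.52, 0.056 and 0.078). Without WT replicate 3 NANOG and ZFP42 did not pass (limma adjusted p = 0.060 and 0.053), and without WT replicate 1 ZFP42 did not (limma adjusted p = 0.059).

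POU5F1 in WT 40S was 780 and 1031 TPM in replicates 1 and 2 and 11.9 TPM in replicate 3, and its difference from Input of -3.15 did not pass the test (SE 1.88, limma adjusted p = 0.18). Without the WT 40S replicate 3 library the same 5 members were called, with SOX2 at -3.79 and PRDM14 at -4.61. With culture as a fixed block all 6 were called in 40S, POU5F1 included (limma adjusted p = 0.0026), and 53.3% of all tested transcripts were called lower.

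Lower levels than in Input were also found for SALL4 and PRDM14 in WT 80S and for PRDM14 in WT disome. SALL4 had 10.8, 7.84 and 6.41 TPM in WT 80S and differed from Input by -2.10 (SE 0.62, limma adjusted p = 0.014). PRDM14 had 8.79, 7.32 and 5.55 TPM in WT 80S and 12.2, 10.1 and 3.31 TPM in WT disome, with log2 differences of -2.71 and -2.64 (SE 0.89, limma adjusted p = 0.028 and 0.044). Of all tested transcripts, 19.4% were called lower in WT 80S and 10.7% in WT disome. The 3 calls did not hold when WT replicate 1, 2 or 3 was left out (limma adjusted p between 0.052 and 0.50), nor after ERCC scaling (0.62 to 0.78), and the 2 in 80S did not hold after median-of-ratios scaling (0.17 for SALL4 and 0.092 for PRDM14). PRDM14 also did not pass with a pseudocount of 0.1 in 80S or disome (limma adjusted p = 0.14 and 0.20). In disome it did not pass without the filter, with the filter at 5 TPM or without KO replicate 1 (limma adjusted p = 0.067, 0.051 and 0.056). With culture as a fixed block SOX2 and ZFP42 were also called in 80S, ZFP42 in disome, and ZFP42 and PRDM14 in Polysome1 (limma adjusted p between 0.00045 and 0.013). In that fit 29.2% of all tested transcripts were called lower in 80S, 18.5% in disome and 14.0% in Polysome1.

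In the heaviest fractions none of the 6 was called against WT Input, where 8.83% of all tested transcripts were lower and 3.18% higher in Polysome1, and 8.81% lower and 3.28% higher in Polysome2 (limma, with 2 of 6 members at an unadjusted p under 0.05 in Polysome1 and 0 in Polysome2). The 6 still differed in how they were laid out. POU5F1 was above its Input level in Polysome1 of every WT culture, at 2.17, 2.14 and 2.62 times Input, and near it in Polysome2, at 1.03, 0.899 and 1.27 times. With only the libraries compared in the fit, its Polysome1 difference of 1.20 was called (SE 0.17, limma adjusted p = 0.0097), where 8.84% of all tested transcripts were called higher.

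PRDM14 was below Input in every WT fraction, at 0.248, 0.224 and 0.249 times in Polysome1 and 0.452, 0.356 and 0.410 times in Polysome2. ZFP42 was at 0.593, 0.509 and 0.521 times Input in WT Polysome2 and SALL4 at 0.646, 0.550 and 0.442 times. NANOG in WT Polysome2 was 1.35, 1.22 and 0.761 times Input. Among WT gradient fractions, the level of PRDM14, ZFP42, SALL4, SOX2 and NANOG was highest on average in Polysome2, whereas that of POU5F1 was highest in Polysome1.

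**Figure D4:**
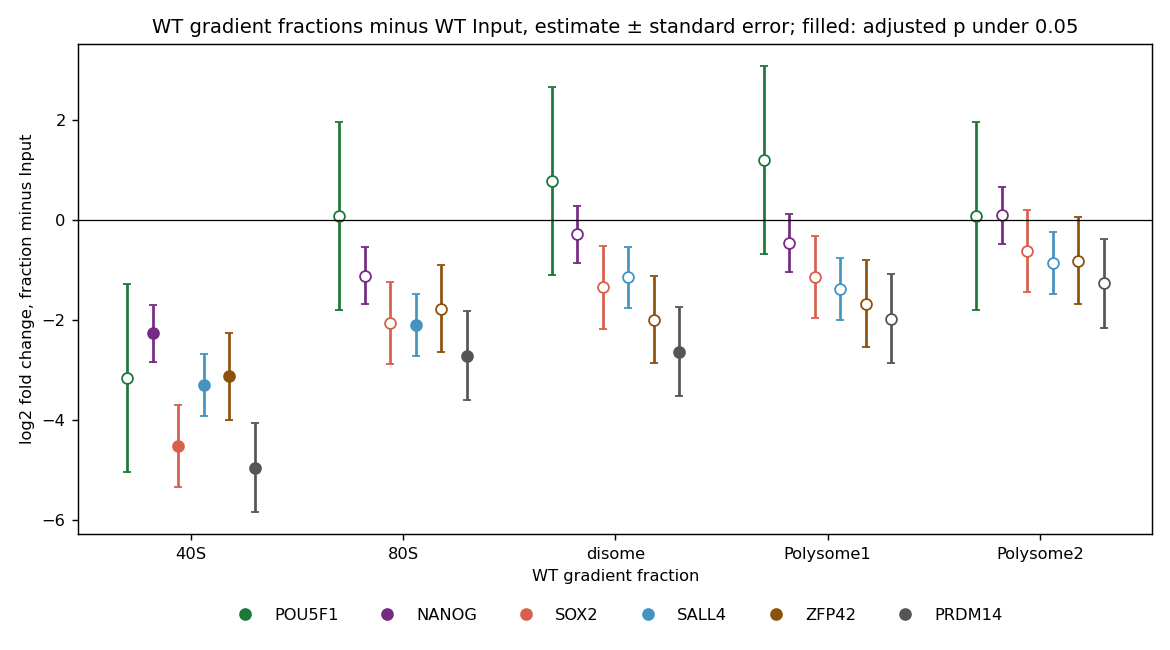
The log2 difference of each WT gradient fraction from WT Input is plotted for the 6 transcripts, with bars of ± 1 standard error from limma and filled points for an adjusted p under 0.05. Filled points number 5 in 40S, 2 in 80S and 1 in disome, and POU5F1 has the widest bars, from the fit that pools the spread of all 12 groups.

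Heavy polysomes were then set against monosomes within each genotype. In KO cultures Polysome2 over 80S was 2.48, 1.28 and 1.16 for POU5F1, 1.29, 1.08 and 2.47 for SOX2 and 1.35, 5.00 and 1.92 for PRDM14, in KO replicates 1, 2 and 3. NANOG was at 0.960 in KO replicate 2 and above 1 in the others. SALL4 was also above 1 in every KO culture, from 1.30 upward, and ZFP42 was listed at 0 in Polysome2 of KO replicate 2 and was at 0.905 in KO replicate 3. In WT cultures the ratio was 2.26, 3.66 and 1.82 for NANOG, 2.09, 4.35 and 2.37 for SOX2, 1.94, 2.37 and 3.53 for SALL4, 2.88, 2.27 and 1.74 for ZFP42 and 2.05, 2.05 and 6.24 for PRDM14. For POU5F1 it was 1.15, 0.776 and 1.10. The relative level of the other 5 was higher in Polysome2 than in 80S in every WT culture. That of POU5F1 was near even. Whether these ratios differed between KO and WT was not tested. None of the 12 differences passed the test (limma, 1 at an unadjusted p under 0.05), while 1.45% of all tested transcripts were called in KO and 13.1% in WT. The median WT log2 difference over all tested transcripts was 0.23, against 1.23 for the 6. For the 5 members other than POU5F1, 76.0% to 86.4% of tested transcripts had a WT difference as low or lower. With only the WT 80S and Polysome2 libraries in the fit, SOX2, SALL4, ZFP42 and PRDM14 were called (limma adjusted p between 0.016 and 0.036), as were 19.0% of all tested transcripts in the higher direction.

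In KO cells 0 of 30 differences between a gradient fraction and KO Input passed the test (limma, 3 at an unadjusted p under 0.05), where the share of all tested transcripts called was 0.682% for 40S, 0% for 80S, 0.00196% for disome, 0.0118% for Polysome1 and 0.660% for Polysome2. SOX2 in 40S was 0.454, 0.297 and 0.125 times the Input of its own KO culture and PRDM14 was 0.275, 0.144 and 0.0151 times. With culture as a fixed block both were called in KO 40S, at log2 differences of -1.87 and -1.85 (limma adjusted p = 0.039 and 0.038), and 8.90% of all tested transcripts were called lower.

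Whether the KO against WT difference in a fraction departed from that in Input was tested as a shift, an interaction term. None of 30 shifts passed the test (limma, 5 at an unadjusted p under 0.05), while the share of all tested transcripts called was 5.17% for 40S, 3.87% for 80S, 3.59% for disome, 2.68% for Polysome1 and 2.31% for Polysome2. In 40S the highest were those of PRDM14, SOX2 and ZFP42, at 3.10, 2.66 and 2.16 (SE 1.26, 1.16 and 1.23, limma adjusted p = 0.17, 0.20 and 0.35). With culture as a fixed block these 3 were called (limma adjusted p = 0.012, 0.028 and 0.012), as were 14.2% of all tested transcripts in the positive direction. For PRDM14 the 40S values were under 1.3 TPM in every library of both genotypes, while its Input level was lower in all 3 KO cultures. ZFP42 was also near the floor in 40S, at 0.402 to 1.19 TPM in WT and 0.414 to 2.57 TPM in KO. The median 40S shift over all tested transcripts was 0.55.

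Other transcripts shared these patterns. Over the 36 libraries the tested transcript most like POU5F1 was ENST00000328703.11 (Pearson's r of log2(TPM + 1) 0.993), at 0.600 to 4.56 TPM in KO replicate 1, 1.80 to 10.4 TPM in KO replicate 2 and 69.8 to 105 TPM in KO replicate 3, against 58.8 to 166 TPM in WT replicate 1 and 51.9 to 196 TPM in WT replicate 2. In WT replicate 3 it reached 231 TPM and was listed at 0 in at least 1 library. A further count gives the extent: 294 of 51051 other transcripts had r of 0.95 or more with POU5F1, against 58 for PRDM14, 29 for SOX2 and 0 for NANOG, SALL4 and ZFP42. Those most like the next 3 members were ENST00000366510.3 for NANOG (0.935), ENST00000370768.6 for SOX2 (0.971) and ENST00000311922.3 for SALL4 (0.946). Libraries of one culture and of one fraction are not independent, so these values only describe likeness. Among the 6, over the 18 WT libraries, r was highest between ZFP42 and PRDM14 (0.908) and lowest between POU5F1 and SALL4 (0.410), and all 15 pairs were above 0.4.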

How the data were processed

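RNA of 36 libraries, 12 groups of 3, was given as one deposited table of TPM per transcript. Per the submitters' processing notes the authors used kallisto and sleuth and the build hg19; versions, annotation and any read filter are not given in the sources used here. TPM divides an estimated read number by transcript length and scales each library to 1000000, so the values keep no depth and no counting interval is given. Only the number of cultures limits the precision that can be stated.

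Columns were matched to samples by the descriptions, and 0 columns of per-sample values were left unused. The 92 ERCC spike-in rows were kept out. Of 223367 transcripts, the 51052 that reached 1 TPM in 3 or more libraries were transformed to log2(TPM + 1) and fitted with limma 3.58.1 in R 4.3.3, with 12 group means, a variance trend and 24 residual degrees of freedom. Benjamini-Hochberg adjustment ran over all tested transcripts within each of 23 comparisons, with a threshold of 0.05. On this scale, changes of weakly expressed transcripts are understated. The fit takes libraries as independent although 6 libraries come from each culture, so fits with culture as a block are given where they change a call. Within a genotype, libraries with the same number in the labels were taken as 1 culture and so as paired. Deviations from the group mean in a fraction and in the Input of that number correlated between 0.294 and 0.705 in KO. In WT they correlated only between -0.122 and 0.213, so there the pairing rests on the labels. Same-numbered KO and WT libraries share only a number, and their deviations correlated between -0.709 and 0.107.

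The members and gene lists were chosen with earlier results of these data known. Every member is named; for the first 4 the most alike transcript is named by ID. The given gene table holds 59792 genes, 0 with an Ensembl ID, so the other pluripotency genes, the lineage markers and RBPMS itself were not analysed here. The same kind of limma fit was run on simulated data for KO against WT Input, with independent noise that was equal in all groups. That check does not cover libraries that share a culture or groups of unequal spread. Alternatives were another pseudocount, filter and scaling, fits of the compared libraries alone, replicate blocks and left-out cultures. Tables and plots used Python 3.11.15, numpy 2.4.6, pandas 2.3.3 and matplotlib 3.10.9.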

Additional observations from a re-analysis of the deposited data

Results flagged for a closer look

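SALL4 was the member whose KO and WT replicates separated in opposite directions in 2 kinds of fraction. All 3 KO cultures were below all WT cultures in Input and above them in Polysome1 and in Polysome2. Taken singly, 29.0% of all tested transcripts had all KO below all WT values in Input. All KO were above all WT values for 9.17% in Polysome1 and 9.86% in Polysome2. The share that shows these together was not computed. The shift of Polysome1 relative to Input was 2.04 in log2 units (SE 0.87, limma adjusted p = 0.30) and that of Polysome2 was 1.50 (SE 0.87, limma adjusted p = 0.58), so the difference between fractions did not pass the test. The pattern was not particular to polysomes. Shifts in 40S and 80S were 1.93 and 1.80 (SE 0.87 each, limma adjusted p = 0.22 and 0.31). In KO replicate 3, which resembled WT libraries, SALL4 was 0.854 times its Input in Polysome1 and 1.12 times in Polysome2, against 0.251 to 0.503 times and 0.442 to 0.646 times in WT cultures. KO replicates 1 and 2 were at 2.19 and 2.22 times Input in Polysome1. The Input libraries of KO replicates 1 and 2 are among those that stood apart, and their part in this pattern was not tested.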

How the results depend on the processing

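The members' differences were recomputed under 17 alternatives, 2214 values in all, of which leaving out the WT 40S replicate 3 library was chosen after seeing the data. Of these, 2086 kept their call or lack of one, 88 passed it newly, 31 no longer passed and 9 changed sign with a call on one side. KO against WT gave 1 call of 36. It gave 22 after ERCC scaling, 0 with only the compared libraries, and 0 to 19 when single cultures were left out. After ERCC scaling the median of all tested transcripts was also far below 0 in both polysome fractions, as given above. With culture as a replicate block KO against WT gave 5, and with the replicate number as a block 2, PRDM14 in Input and Polysome2. WT fractions against Input gave 8 of 30, 3 after median-of-ratios scaling, 15 with only the compared libraries, 14 with the culture replicate block, and 3 to 14 with single cultures left out. KO fractions gave 0 of 30, 2 with the culture replicate block and 0 without any single culture. Shifts gave 0 of 30, 3 with the culture replicate block and 0 to 5 with single cultures left out. Polysome2 against 80S gave 0 of 12, 5 after ERCC scaling, 4 with only the compared libraries, and 0 to 1 with single cultures left out. A change of sign was found for NANOG in WT 40S against WT Input after median-of-ratios scaling (0.12), and the others came after ERCC scaling. For KO minus WT these were NANOG and SALL4 in Polysome1 (-3.25 and -2.82) and in Polysome2 (-4.77 and -4.40). For WT fractions against WT Input they were NANOG in Polysome1 (2.86), and SOX2, SALL4 and ZFP42 in Polysome2 (3.29, 2.99 and 2.94). ERCC scaling moves every transcript of a library by 1 factor, and between 7 and 56 of the 92 ERCC rows were above 0 in a library. In KO against WT Polysome1 after ERCC scaling, POU5F1 and SALL4 were both called lower. Of all tested transcripts, 0.0431% had a difference as low as that of POU5F1 or lower, and 54.7% for SALL4. Counts given here without the share of all tested transcripts called in the same setting cannot be weighed against that share. Apart from the calls given in the results, the culture block changed no call. The cause of the other changes was not tested. Depth is unknown and sets no stated limit.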
